A study of Mus musculus with 5 samples.

Results

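The exons described here are the cassette exons of 6 genes of the smooth muscle contractile apparatus and its control: Myh11, Cald1, Smtn, Myocd, Sorbs2 and Mprip. A cassette exon is one that a transcript either holds or skips, and each is measured as an event made of the exon and its neighbours. Genes were named by the lengths of the exon and its introns. Only where these found no match was the gene given in the tables used, or else the skipping junction or a shared exon. All events of the 6 genes in the deposited tables were taken. This gave 10 events out of 6616, all of them in all 6 tables. Myh11, Cald1 and Myocd had 1 event each, Smtn and Mprip 2 each, and Sorbs2 3.

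RNA came from the left ventricle of C57BL/6 mice aged 12 weeks. The 2 Control samples came from mice injected with citrate buffer, and the 3 STZ samples from mice given streptozotocin in that buffer at 70 mg/kg, both once a day for 5 days from the age of 8 weeks. Streptozotocin is toxic to the insulin-producing beta cells and serves to induce diabetes in mice. The samples are numbered without a statement that each is a separate animal, so p-values measure only the spread between these samples.

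Library codes in the tables could not be tied to single sample titles. The 2 libraries on one side of every table were taken as Control (A and B) and the 3 on the other side as STZ (A, B and C), from the group sizes alone. The codes form 2 series of names that split as the groups do, so STZ and any difference in handling between those series cannot be told apart. The libraries had 12692236 to 20963751 reads on all events, and both Control libraries were deeper than every STZ library. A median tested exon had 94 to 192 informative reads, which are the reads that fit only the including or only the skipping isoform. The ventricle is mostly heart muscle, and events of its markers Ttn, Tnnt2 and Pln carried many reads in every library. Of the 8 smooth muscle markers listed, only Myh11 and Smtn had an event, so the smooth muscle content of the samples could not be checked further.

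Smooth muscle cells of the coronary vessels contract when calcium activates the kinase that phosphorylates the light chains of myosin, and they relax when myosin phosphatase removes that phosphate. Myh11 is the heavy chain of smooth muscle myosin, and Cald1 encodes caldesmon, an actin-binding protein that restrains the actin-activated myosin ATPase. Smtn encodes smoothelin, which binds actin filaments of contractile smooth muscle cells. Mprip binds the myosin phosphatase complex and RhoA. Sorbs2 is an adaptor of stress fibres and Z-discs, and Myocd is a coactivator of serum response factor that switches on smooth muscle genes and is also made in heart muscle cells. Many of these genes make a smooth muscle and a more general protein by splicing or by a choice of promoter.

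Of the 10 exons, 3 end a protein: in GENCODE M21 (GRCm38) the exons of 39 nt in Myh11, 66 nt in Mprip and 165 nt in Smtn each hold the stop codon of the coding transcripts that include them. A transcript that skips the exon reads on to another stop in the next exon, so inclusion decides the end of the protein. The Myh11 exon is exon 41 of 42 on the minus strand of chromosome 16 (mm9 chr16:14198143-14198181; GRCm38 chr16:14198050-14198088). Inclusion gives the SM2 tail of the heavy chain and skipping the SM1 tail. The Mprip exon is exon 23 of 24 on the plus strand of chromosome 11 (mm9 chr11:59585654-59585719; GRCm38 chr11:59772152-59772217). The sequences below show what each choice adds to the end of the coding sequence, from GENCODE M21 transcripts matched on exon and intron lengths, 5′ to 3′, with the stop codon in capitals. The Myh11 exon is whole and that of Mprip is shown to its stop.
Myh11, 39-nt exon: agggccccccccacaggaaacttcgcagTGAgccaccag
Myh11, next exon to its stop when skipped: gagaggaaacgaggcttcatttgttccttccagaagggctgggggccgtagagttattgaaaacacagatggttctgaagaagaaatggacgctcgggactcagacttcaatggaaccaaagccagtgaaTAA
Mprip, 66-nt exon to its stop: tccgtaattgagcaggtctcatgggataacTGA
Mprip, next exon to its stop when skipped: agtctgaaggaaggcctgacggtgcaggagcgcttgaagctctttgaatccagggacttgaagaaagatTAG
The Myh11 exon adds 28 coding nt before its stop, and skipping adds 130. In Mprip the counts are 30 and 69 coding nt. In Smtn they are nearly equal, at 142 and 148.

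STZ was set against Control to ask whether these exons are spliced differently in the diabetic heart. The measure is Psi, the authors' estimate of the fraction of transcripts crossing the event that include its exon. Of the 10 exons, 8 had at least 10 informative reads in every library and were tested, in a limma fit of logit Psi over all 4769 such exons with Benjamini-Hochberg adjustment. Inclusion of the 39-nt exon of Myh11 and the 66-nt exon of Mprip was lower in STZ and passed an adjusted p of 0.05, and the other 6 did not pass. Among all tested exons 15% passed (713 exons), 10.1% with lower and 4.84% with higher inclusion in STZ. A quasi-binomial model of the informative reads also called 2 of the 8, and 13.4% of all tested exons. The share of the tested exons of the 6 genes, 2 of 8, rests on too few exons to be set apart from that background. Their median change of Psi was -0.02, beside -0.01 over all tested exons. The plot of Psi by library shows 3 exons whose groups do not overlap, those of Myh11, Mprip (66 nt) and Sorbs2 (45 nt), where 42.9% of all tested exons do so.

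**Figure D1:**
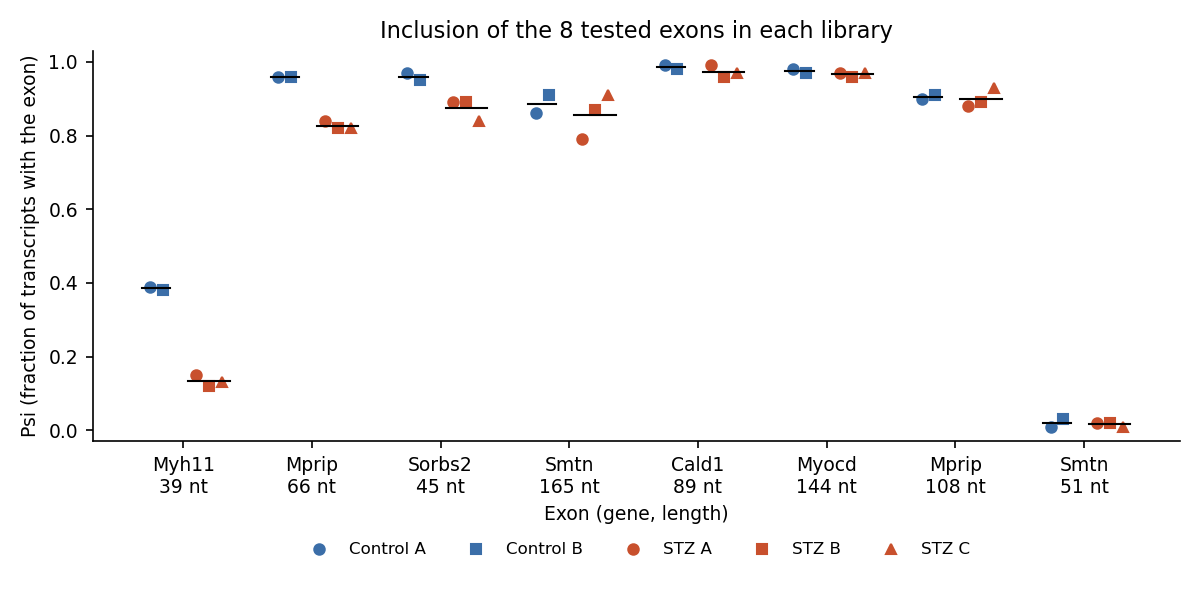
Psi (vertical axis, fraction from 0 to 1) of the 8 tested exons in each of the 2 Control libraries (blue) and 3 STZ libraries (red), with group means as black lines. The exon of Myh11 sits at 0.38 and 0.39 in Control and at 0.12 to 0.15 in STZ.

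The 39-nt exon of Myh11 had a Psi of 0.39 in Control A and 0.38 in Control B. It was 0.15 in STZ A, 0.12 in STZ B and 0.13 in STZ C. All STZ libraries were thus far below both Control libraries, with little spread inside either group. The mean fell from 0.385 ± 0.00707 (SD, n = 2) to 0.133 ± 0.0153 (SD, n = 3), a logit change of -1.41 (SE 0.0968, limma adjusted p = 0.00856). The change ranked 337 of 4769 tested exons by its size and 125 by its p. Leaving out Control A or Control B ended the call in limma (adjusted p = 0.0567 and 0.0514), with the change itself at -0.247 and -0.257.

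The reads behind Psi were also taken for each isoform apart. Reads that fit only the including isoform of Myh11 numbered 55 and 55 in Control A and B, and 65, 35 and 39 in STZ A, B and C. Those that fit only the skipping isoform numbered 65 and 67 in Control, and 260, 193 and 180 in STZ. In counts per 1000000 event reads of the library (CPM), inclusion-only reads averaged 2.91 in Control and 3.28 in STZ, while exclusion-only reads averaged 3.49 and 15. The lower Psi therefore came with more reads of the skipping isoform, that of the SM1 tail. Inclusion-only reads were at 3.21 and 2.62 CPM in Control and at 4.36, 2.41 and 3.07 in STZ, so the groups overlapped. In this scaling the median log2 change of event reads over all events was -0.24, and these values were not corrected for it. Whether the including isoform changed was not tested. The share of inclusion-only among informative reads, which uses no length correction, was 0.455 ± 0.00531 in Control and 0.177 ± 0.0233 in STZ. The quasi-binomial model called the exon too (adjusted p = 0.0156). In the authors' deposited tables the difference of Psi ran from -0.27 to -0.23, with a Bayes factor of at least 10 in 6 of 6 comparisons. It was the only one of the 10 events with a difference of at least 0.20 and such a Bayes factor in all 6, a rule that 3.22% of 6331 events met.

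The 66-nt exon of Mprip was held by nearly all transcripts in Control, with a Psi of 0.96 in both libraries. In STZ A, B and C it was 0.84, 0.82 and 0.82, below both Control values in every library. The mean fell from 0.96 ± 0 (SD at 2 decimals, n = 2) to 0.827 ± 0.0115 (SD, n = 3), a logit change of -1.61 (SE 0.0561, limma adjusted p = 0.00267). The change ranked 901.5 (a tie) of 4769 by its size and 33 by its p, and the call held without any 1 of the 5 libraries (adjusted p 0.000999 to 0.0251). Inclusion-only reads numbered 1039 and 1318 in Control and 1160, 1711 and 1427 in STZ. Exclusion-only reads numbered 29 and 48 in Control and 172, 320 and 253 in STZ. In CPM the first averaged 61.7 in Control and 102.6 in STZ and the second 1.99 and 17.8, so the mean was higher for both isoforms and far more so for the skipping isoform. An antisense gene, Gm12264, overlaps this event, and reads of the 2 strands may not be told apart, since no strand setting is stated. The quasi-binomial model gave an adjusted p of 0.0137, and the authors' deposited tables a difference of -0.14 to -0.12 with a Bayes factor of at least 10 in 6 of 6 comparisons.

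**Figure D2:**
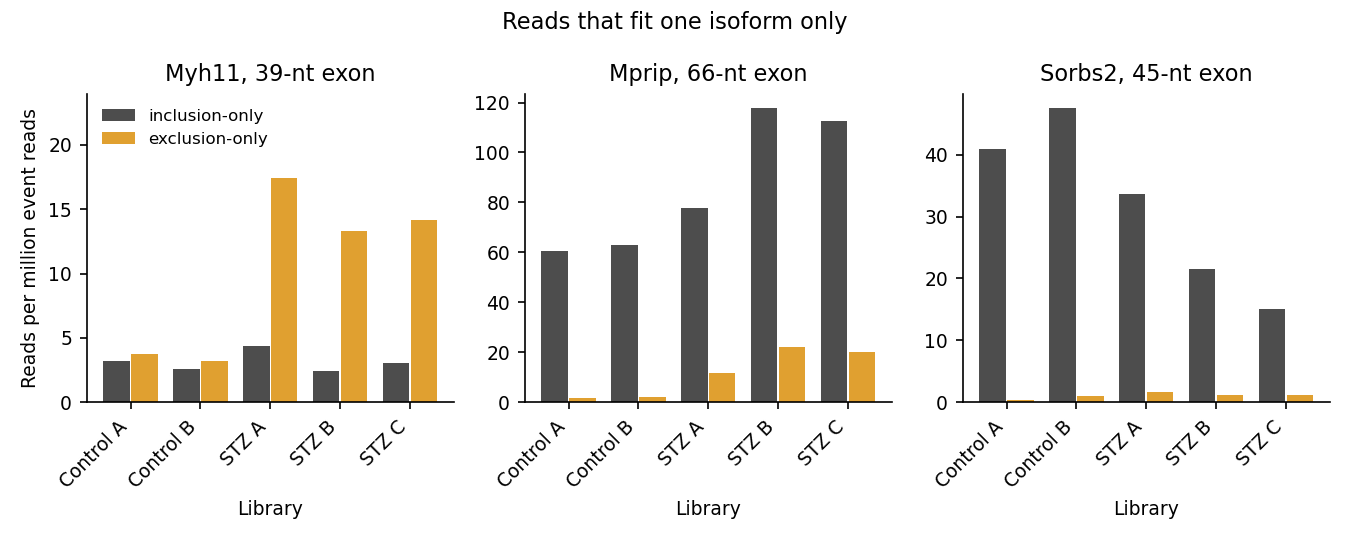
Reads that fit only the including (dark) or only the skipping isoform (yellow), in CPM (vertical axis, from 0), in the 5 libraries for 3 exons. For Myh11 the yellow bars average 3.49 in Control and 15 in STZ, while the dark bars average 2.91 and 3.28.

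The second cassette exon of Mprip, of 108 nt, lies in the coding sequence of 4 coding transcripts and keeps the reading frame, since its length is a multiple of 3. Its Psi was 0.9 and 0.91 in Control and 0.88, 0.89 and 0.93 in STZ. The groups overlapped (limma adjusted p = 1). Its exclusion-only reads summed to 80 over Control and to 129 over STZ. Within Mprip, then, a change passed the test at the exon that ends the protein and none was detected at the exon further upstream. Whether the changes of these 2 exons differ was not tested.

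The 45-nt exon of Sorbs2 has a length that is a multiple of 3 and is coding in the 11 transcripts that hold it, in 1 of them from a start codon inside it (mm9 chr8:46855900-46855944, plus strand). The antisense gene Sorbs2os overlaps this event. It is shown because its groups did not overlap, and the whole exon reads as follows in GENCODE M21.
Sorbs2, 45-nt exon: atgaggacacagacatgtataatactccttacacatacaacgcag
Its Psi was 0.97 and 0.95 in Control and 0.89, 0.89 and 0.84 in STZ. The means were 0.96 ± 0.0141 (SD, n = 2) and 0.873 ± 0.0289 (SD, n = 3), and the exon missed the threshold (limma adjusted p = 0.0539; quasi-binomial 0.0666). The read share in limma gave 0.0321 and clipping Psi at 0.001 gave 0.0485, so the call turns on the setting. Exclusion-only reads were 7 and 21 in Control and 26, 16 and 14 in STZ, while inclusion-only reads were 702 and 996 in Control and 502, 313 and 191 in STZ. In CPM the inclusion-only reads averaged 44.2 in Control and 23.4 in STZ, and the exclusion-only reads 0.705 and 1.32. Unlike in Myh11 and Mprip, the reads of the including isoform were fewer in STZ here.

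The other 2 exons of Sorbs2, of 92 and 93 nt, had too few informative reads to be tested, with 1 to 3 and 2 to 12 per library. The 92-nt exon had a Psi of 0.6 and 0.46 in Control and 0.82, 0.7 and 0.64 in STZ, groups that did not overlap. No read fitted only its skipping isoform in any library, 0 of 10 informative reads over all 5, which allows a share of up to 30% by counting error alone. The 93-nt exon ranged from 0.21 to 0.84 within STZ. Psi of both exons is thus an estimate made almost without reads that tell the isoforms apart.

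Cald1 had 1 event, an 89-nt exon at mm9 chr6:34612128-34612216, with no coding base in any of the 3 coding transcripts that hold it and overlapped by the antisense gene Gm13861. Its Psi was 0.99 and 0.98 in Control and 0.99, 0.96 and 0.97 in STZ (limma adjusted p = 0.652). Reads of the skipping isoform alone numbered 0, 1, 0, 3 and 2 in Control A to STZ C. A count of 0 allows a share of up to 1.43% of the 210 informative reads of Control A and 1.46% of the 205 of STZ A. No alternative exon of the caldesmon coding sequence was among the events.

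The 144-nt exon of Myocd is coding and in frame in both coding transcripts that hold it (mm9 chr11:64997990-64998133). Its Psi was 0.98 and 0.97 in Control and 0.97, 0.96 and 0.97 in STZ. The values overlapped at 0.97 (limma adjusted p = 0.365). Exclusion-only reads were 1 and 2 in Control and 15, 8 and 4 in STZ, out of 489 to 1993 informative reads. The quasi-binomial model of these reads also missed the threshold (adjusted p = 0.0594).

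Smtn had an exon at each end of the gene. The 165-nt exon, which holds the stop codon, lies at mm9 chr11:3420755-3420919 and had a Psi of 0.86 and 0.91 in Control and 0.79, 0.87 and 0.91 in STZ (limma adjusted p = 0.783). The 51-nt exon lies near the start of the gene at mm9 chr11:3437558-3437608 and has no coding base in the transcripts that hold it. Its Psi was 0.01 and 0.03 in Control and 0.02, 0.02 and 0.01 in STZ (limma adjusted p = 0.992), so nearly all transcripts read there skipped it. Inclusion-only reads of the 51-nt exon numbered 9 over the 5 libraries, 4 in Control and 5 in STZ. The groups overlapped at both exons of Smtn. The third exon that holds a stop codon therefore showed no detectable change, unlike those of Myh11 and Mprip. Whether it differs from those was not tested.

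Among the 3728 tested exons matched to a coding transcript, 121 hold the stop codon of one. Of these 26 passed (21.5%), 21 with lower and 5 with higher inclusion in STZ. Of the other 3607 exons, 521 passed (14.4%), 385 with lower and 136 with higher inclusion, so calls in both sets were mostly lower. The 2 shares are a description over exons, which are not independent, and include the exons of Myh11 and Mprip. The split by stop codon was not among the planned results, and the difference of the shares was not tested.

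**Figure D3:**
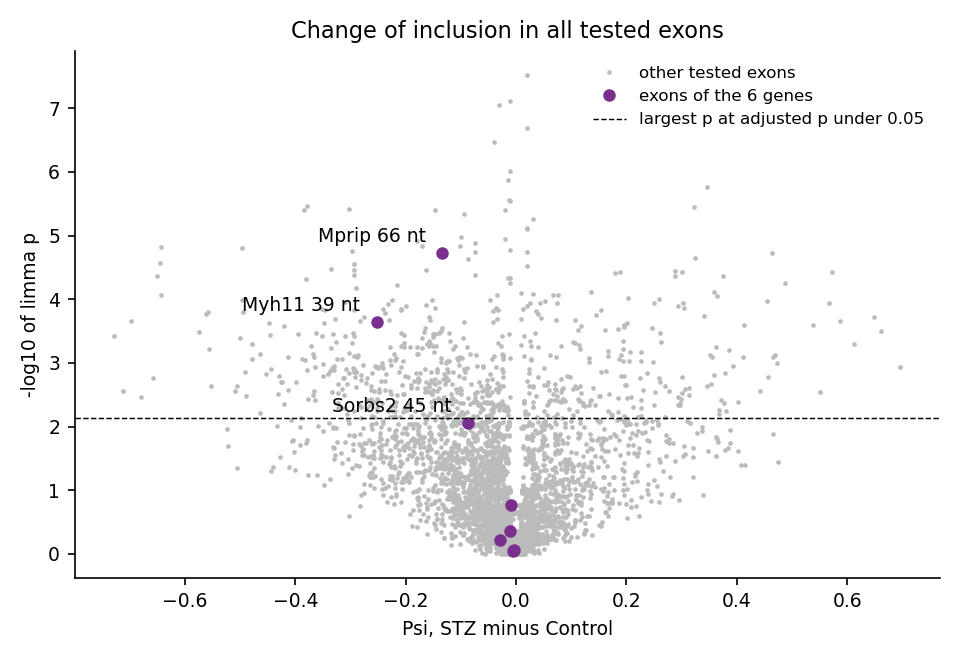
Change of Psi (horizontal axis, STZ minus Control) against -log10 of the limma p (vertical axis) for the 4769 tested exons, with the 8 exons of the 6 genes in purple. The exons of Mprip (66 nt) and Myh11 lie above the dashed line, the largest p called at an adjusted p under 0.05, and the 45-nt exon of Sorbs2 just under it.

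The reads on an event give a second readout that does not use Psi. All 4 classes were summed (including only, skipping only, both isoforms, neither) and scaled to CPM. These values were tested in limma on log2(CPM + 1) over all 6331 events. In this readout 53.9% of all events passed an adjusted p of 0.05, 18.3% with more and 35.5% with fewer reads in STZ. The median change over all events was -0.24, and -0.00416 when libraries were scaled by the median of ratios, so changes are also given relative to that median. Of the 10 events of the 6 genes, 5 passed with more reads in STZ, 3 with fewer, and 2 did not pass. In each of the 10 the groups were apart, as they were in 72.9% of all events. With so many events called, a call says little by itself. The median log2 change of the 10 was 0.46.

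Myh11 had the largest rise of the 10. Its event took 56.4 and 49.6 CPM in Control and 181.3, 110.6 and 154.7 in STZ, with every STZ library above both Control libraries. The mean rose 2.81-fold, from 53 ± 4.82 (SD, n = 2) to 148.8 ± 35.7 (SD, n = 3), a log2 change of 1.45 (SE 0.215, limma adjusted p = 0.00135) and 1.69 above the median. It passed without any 1 of the 5 libraries (adjusted p 0.000395 to 0.0178). In whole tissue, more smooth muscle cells and more RNA per cell cannot be told apart. The other smooth muscle marker with an event, Smtn, had fewer reads in STZ at its 165-nt event and more at its 51-nt event, as given below.

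Myocd rose with it, from 107.2 and 146.6 CPM in Control to 446.7, 251.5 and 210.8 in STZ. The STZ libraries spread widely but all lay above Control (log2 change 1.19, SE 0.312, limma adjusted p = 0.0151; 1.43 above the median). The call of Myocd was lost without Control A (adjusted p = 0.109). Both events of Mprip rose as well. The 66-nt event went from 781.7 and 747.1 CPM to 1029, 1409 and 1325 (limma adjusted p = 0.00863), and the 108-nt event from 98.5 and 100.7 to 184.6, 193.9 and 187.5 (0.000685). Relative to the median they were 0.94 and 1.16 higher on the log2 scale. The call of the 66-nt event was lost without Control A (adjusted p = 0.0589) or Control B (0.0757). The event of Cald1 did not pass, with 62.5 and 52.4 CPM in Control and 64.7, 64.7 and 72.3 in STZ (adjusted p = 0.218). It passed when libraries were scaled by the median of ratios (log2 change 0.47, adjusted p = 0.0285).

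The events at the 2 ends of Smtn moved in opposite directions. The 51-nt event near its start took 18.5 and 15.9 CPM in Control and 30.4, 29.9 and 39.6 in STZ (log2 change 0.90, SE 0.185, limma adjusted p = 0.00534). Without Control B the call of the 51-nt event was lost (adjusted p = 0.0668). The 165-nt event at its end took 2545 and 2684 in Control and only 676.3, 618.8 and 769.1 in STZ (log2 change -1.93, SE 0.136, limma adjusted p = 0.000107). Most reads of the 165-nt event fit neither of its isoforms, 93.1% in Control and 84.6% in STZ, where the median event has 59.3%. Those reads numbered 40671 and 52375 in Control and 7461 to 8875 in STZ. Counting only the reads that fit an isoform, and scaling by their total, 41% of all events passed, 25.6% with fewer and 15.4% with more reads in STZ, and of the 10 events 5 passed with more and 1 with fewer. By this count the 165-nt event still had fewer reads in STZ, but by much less. It took 324.1 and 339.8 CPM in Control and 159.6, 199.7 and 252.6 in STZ (log2 change -0.72, SE 0.203, limma adjusted p = 0.0406). By the same count the 51-nt event went from 24.2 to 46.7 CPM (log2 change 0.92, adjusted p = 0.0068). Smoothelin has a long and a short form that start from separate promoters. The difference between the 2 events was not tested.

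The 3 events of Sorbs2 had lower values in every STZ library than in both Control libraries, and 2 of them passed. The 45-nt event took 140.1 and 166.7 CPM in Control and 120.7, 86.6 and 66.9 in STZ (log2 change -0.78, SE 0.241, limma adjusted p = 0.0293). The 93-nt event was at 50.7 and 44.8 in Control and at 37.2, 20 and 12.8 in STZ (adjusted p = 0.0411), and the 92-nt event at 110.1 and 119.6, then 107.4, 56.1 and 40.7 (0.0781). STZ A lay nearest to Control at all 3. Scaled by the median of ratios, neither the 45-nt nor the 93-nt event passed (adjusted p = 0.0884 and 0.0737). Nor did any of the 3 pass in reads that fit an isoform: the log2 change was -0.83 for the 45-nt event (adjusted p = 0.0918), -0.24 for the 93-nt event (0.459) and -1.24 for the 92-nt event (0.0764). Reads that fit neither isoform made up 97.6% of the 92-nt event in Control and 98.6% in STZ, and 98.4% and 97.7% of the 93-nt event. Antisense genes overlap these events too, Sorbs2os the 93-nt event and Gm45458, Gm16351 and Gm23604 the 92-nt event. Which gene the reads came from was not tested. Without STZ A the 92-nt event passed (adjusted p = 0.000376). The 45-nt call was lost without Control A, Control B, STZ B or STZ C (0.0784, 0.173, 0.0887 and 0.0537), and that of the 93-nt event without any of the same 4 (0.173, 0.12, 0.114 and 0.0706).

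**Figure D4:**
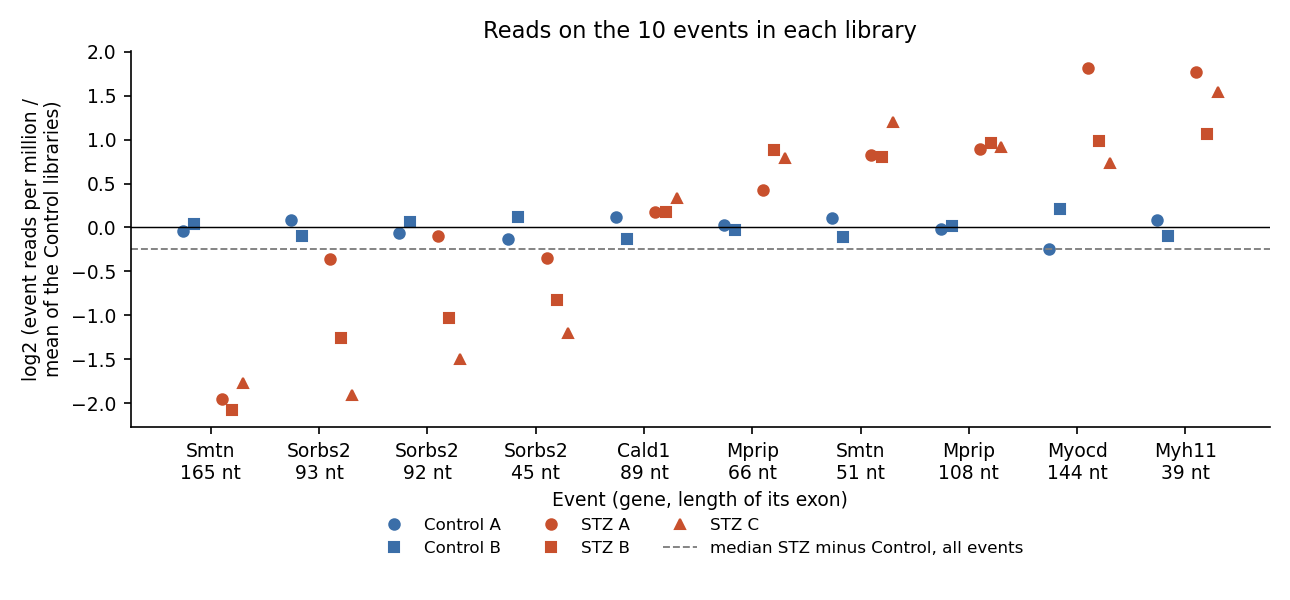
Reads on each of the 10 events as log2 of CPM over the mean of the Control libraries (vertical axis), in 2 Control (blue) and 3 STZ libraries (red), with events ordered by change. The dashed line is the median change of all events, -0.24; Smtn (165 nt) lies lowest and Myh11 highest.

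Some markers of other cells moved too, and their part in these results was not tested. For each list, the event with most reads of each gene was taken and its reads that fit an isoform were scaled to CPM of all such reads. By this count 41% of all events passed, 15.4% with more and 25.6% with fewer reads in STZ. A call of a marker therefore says little by itself. The 2 smooth muscle markers with an event summed to 398.1 to 399.3 in Control and 377.7 to 490.3 in STZ. Myh11 passed with more reads in STZ and Smtn, at its 165-nt event, with fewer. Endothelial markers, with an event in 2 of 8 genes, summed to 658.9 to 763.6 in Control and 1689 to 2798 in STZ. Pecam1 made up most of that sum, and Emcn did not pass (log2 change -0.01, adjusted p = 0.99). Cardiomyocyte markers, with an event in 6 of 10 genes, summed to 128474 to 129783 in Control and 60761 to 67450 in STZ. Of these 6 genes 2 fell, 1 rose and 3 did not pass. Pln, the phospholamban gene, held most of the fall in the sum (log2 change -1.61, adjusted p = 0.0054), and Ryr2, the calcium release channel, fell from a low level (-1.76, 0.0404). Tnnt2 rose (log2 change 0.53, adjusted p = 0.019), while Ttn (-0.01, 0.966), Ldb3 (-0.14, 0.83) and Myom1 (-0.28, 0.538) did not pass. Counting all event reads, Tnnt2 had the opposite sign and did not pass (log2 change -0.26, limma adjusted p = 0.188). Fibroblast markers, with an event in 2 of 8 genes, summed to 42.1 to 45.7 and 22.7 to 33.6. Neither Fn1 nor Postn passed (limma adjusted p = 0.0686 and 0.217). Of the 5 genes listed as pericyte markers, only Abcc9 had an event, at 3347 to 3485 in Control and 1741 to 2359 in STZ. Which cells of the ventricle its reads came from was not tested, so they are no measure of pericytes. Leukocyte markers, with an event in 2 of 6 genes, ran at 30.9 to 32 and 29.3 to 59.9, and neither Cd68 nor Ptprc passed (limma adjusted p = 0.265 and 0.386). Ptprc was at 0 in Control A, STZ A and STZ C, and no other marker with an event was at 0 in any library.

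Other genes of smooth muscle and actomyosin were looked at through a list of 65, of which 23 had an event and 21 a tested exon. Acta2, Tagln, Cnn1, Mylk and Tpm1 were among those without an event. Of 42 tested exons 5 rose and 2 fell in inclusion, a share of 16.7% beside the 15% of all exons, and their median change was 0. A 45-nt exon of Myl6, the essential light chain of smooth muscle and non-muscle myosin, fell from 0.27 ± 0.0283 to 0.0667 ± 0.0115 (limma adjusted p = 0.0129). Its read share fell from 0.464 to 0.137.

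Inclusion rose at 2 overlapping annotations of 1 exon of Zyx, zyxin of focal adhesions. The 88-nt form rose from 0.55 ± 0.0141 to 0.73 ± 0 (adjusted p = 0.00397) and the 93-nt form from 0.675 ± 0.00707 to 0.83 ± 0.01 (0.00715). Psi also rose at a 675-nt exon of Palld, palladin of stress fibres, from 0.725 ± 0.00707 to 0.973 ± 0.0115 (adjusted p = 0.0173). There only 4 reads over Control and 1 over STZ fit the skipping isoform alone, and the quasi-binomial model did not call it (adjusted p = 0.619). A further 2 calls were under 0.10 in Psi. They lay in Dmd (32 nt, 0.93 and 0.99) and in Ppp1r12a, the targeting subunit of myosin phosphatase (168 nt, 0.83 and 0.867). The quasi-binomial model called the exon of Dmd (adjusted p = 0.0398) and not that of Ppp1r12a (0.192). In reads that fit an isoform, 6 of the 23 genes passed with more in STZ and 3 with fewer, where 15.4% of all events passed with more and 25.6% with fewer.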

How the data were processed

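Left ventricle RNA of 2 Control and 3 STZ samples was sequenced. The submitters' processing notes name CASAVA 1.8.2, TopHat and the mm9 build. The authors compared libraries pairwise with MISO, per the file headers. For its version and event filter, nothing is given in the sources used here. The authors deposited Psi as a fraction rounded to 2 decimals, reads as raw counts in 4 classes, and the Bayes factor as a ratio, per the file headers. Per the file headers, the authors' difference column is Psi of the first library minus the second, and it was turned to STZ minus Control here. Library values were the same in every table (0 differences). Left unused were 36 more columns of library values.

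Genes were named by matching exon and intron lengths to GENCODE M21, which names 5958 of 6616 events. Where the tables also gave an Ensembl gene, 97.6% of 3348 matched. The Myocd event carries an older symbol in the tables. Sequences come from GENCODE M21 transcripts, and no mm9 sequence was used.

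Psi was clipped to 0.01 to 0.99, put on the logit scale and tested in limma 3.58.1 (R 4.3.3), two-sided, with a variance trend on informative reads. Event reads were tested likewise on log2(CPM + 1), with CPM computed here per 1000000 event reads. A quasi-binomial model of inclusion-only and exclusion-only reads used squeezed dispersions. The scripts were tested on simulated data. Intervals and limits cover counting error only.

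The members, lists and tests were chosen with earlier results of these data known. All events of the 6 genes are named, as are called list exons from a change of 0.10 up, of which 1 is not reported here. List calls under 0.10 were added after their values were seen. For the exons of Myh11 and Mprip, the 3 exons with the nearest Psi profile are named.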

Additional observations from a re-analysis of the deposited data

How the results depend on the processing

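The call on 2 of the 8 tested exons was 2 or 3 with a minimum of 5 or 20 informative reads, Psi clipped at 0.001 or 0.05, array weights, the read share in limma, the quasi-binomial model, and no minimum on reads (added after the data were seen). The rule in all 6 of the authors' comparisons called 1 of the 10, and 204 exons of all genes. Leaving out 1 library called 1 to 2 of the 8, and 282 to 467 exons of all genes against 713. The Psi change of Myh11, Cald1, Myocd, Sorbs2 (45 nt) and Mprip (66 nt) kept its direction under every alternative that gave one. The change of the 108-nt exon of Mprip turned to 0.000483 with the read share and in the quasi-binomial model. Leaving out 1 library, that exon ran from -0.02 to 0.005, the 165-nt exon of Smtn from -0.055 to 0.005, and the 51-nt exon of Smtn from -0.0133 to 0.00667. In event reads, leaving out 1 library gave 4 to 9 calls of 10 against 8, and the direction of each event was kept under every alternative. Reads that fit an isoform only, also added after the data were seen, gave 6 calls. Under the median of ratios 6 of the 10 passed with more reads in STZ and 1 with fewer. Over all 6331 events 1717 passed with more and 1729 with fewer. Among calls only, the share with more reads moved from 34% to 49.8% over all events. In the calls of the 6 genes it moved from 62.5% to 85.7%. No paired analysis was possible because the columns carry no replicate number. Depth left the 92-nt and 93-nt exons of Sorbs2 untested, with 1 to 3 and 2 to 12 informative reads per library.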

Other observations

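The tested exons of other genes whose Psi over the 5 libraries lay nearest to the Myh11 exon, by the mean absolute difference of Psi among 4768 exons, were in Ptbp1, Rnf138 and Prdm16. The 74-nt exon of Ptbp1, a splicing repressor of smooth muscle exons, had 0.41 and 0.39 in Control and 0.15, 0.17 and 0.12 in STZ, a mean difference of 0.018. The 108-nt exon of Rnf138 lay 0.022 and an exon of Prdm16 0.026 away. An overlapping 78-nt form of the Ptbp1 exon had a mean Psi of 0.55 in Control and 0.2 in STZ. Any link between these exons and that of Myh11 was not tested. For the 66-nt exon of Mprip the nearest were exons of Zfand3 (41 nt, 0.01), Pgap2 (112 nt, 0.012) and Vps26a (76 nt, 0.012), the last equalled by Polr2d (96 nt). With 5 libraries in 2 groups, many exons have like profiles.

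Of 13 splicing factors linked to smooth muscle exons, 12 had tested exons. Of their 24 exons 5 passed with a rise and 5 with a fall of inclusion, 41.7% of them beside the 15% of all exons. Several of these genes were known to differ in these samples when the list was written, and some exons overlap. The median change of the 24 was -0.00667.

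The neither class moved at other events of the 6 genes too. It held 32.3% of the reads of the Myh11 event in Control and 16.2% in STZ, and 44.8% and 55.8% at the 108-nt event of Mprip. What these reads come from was not analysed here.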
